A study of Mus musculus with 8 samples.

Results

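The CC chemokine genes described here are Ccl2, Ccl3, Ccl4, Ccl5, Ccl6, Ccl7, Ccl8, Ccl9, Ccl11 and Ccl12, chosen by name from the array's gene names, 10 of 35019. Each is read by 1 probe of 60 bases, and the Ccl2 probe is spotted 10 times on every array. They were measured on 8 one-colour Agilent arrays of C57BL/6 mouse heart, 2 for each of 4 groups. Passage-8 cells were descendants, at passage 8, of c-kit+/CD45+ cells. The left atrial appendage, an ear-shaped outgrowth of the left atrium, was the source of the explants. CD45-negative cells were primary c-kit+/CD45- cells sorted from explants digested strongly, in 0.25% trypsin and 0.1% collagenase D. CD45-positive cells were primary c-kit+/CD45+ cells sorted from explants digested weakly, in 0.05% trypsin and 0.1% collagenase D. CD45 is the surface phosphatase of white blood cells and c-kit is a receptor tyrosine kinase. Tissue biopsied from the left ventricular wall of mice aged 12 weeks was the control, and the cells came from mice aged 8 to 12 weeks. The comparisons ask how both primary cell types differ from each other, what the CD45-positive line looks like after passage, and how each stands to heart muscle. The digestion changes together with the sort gate, so the 2 cannot be told apart. For the passage-8 cells the labels do not state the digestion. Against CD45-negative cells they differ in parent gate and in passage at once, and these cannot be told apart. RNA was extracted with 1 kit from the cells and with another reagent from the ventricle, so extraction and source cannot be told apart in any comparison with ventricle. The labels do not say that replicates are separate cultures or animals, so a p-value here measures no more than the spread of these samples, and that spread may be technical.

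CC chemokines are small secreted proteins with a pair of adjacent cysteines near the start of the mature chain. They act through receptors coupled to G proteins on leukocytes and draw these cells along a concentration gradient. Ccl2, Ccl7 and Ccl12 call in monocytes through Ccr2, Ccl8 acts through Ccr8 in the mouse, and Ccl11, an eotaxin, calls in eosinophils through Ccr3. Ccl3 and Ccl4 are macrophage inflammatory proteins that draw monocytes and lymphocytes, Ccl5 binds Ccr1 and Ccr3 among others, and Ccl6 and Ccl9 are rodent chemokines of myeloid cells that bind Ccr1. In the heart, macrophages and stromal cells are known sources of monocyte-attracting chemokines after injury.

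By the probes' positions in build mm9, all 10 genes lie on chromosome 11 in 2 clusters of 5. The first holds Ccl2, Ccl7, Ccl11, Ccl12 and Ccl8 in this order on the plus strand, with probes from 81850650 to 81930167, a span of 79.5 kb. The second holds Ccl5, Ccl9, Ccl6 and Ccl3 on the minus strand and Ccl4 on the plus strand, with probes from 83339296 to 83478111, a span of 138.8 kb. A gap of 1.41 Mb separates the clusters. The first holds the monocyte attractants, Ccl8 and the eotaxin, and the second holds the macrophage inflammatory proteins, Ccl5 and the myeloid chemokines.

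Levels are given as log2 of the signal relative to the 75th percentile of the non-control spots on the same array, so 0 is the level of that percentile and a difference of 1 is 2-fold. That percentile lay at an intensity of 974 to 976 for passage-8, 426 to 521 for CD45-negative and 839 to 897 for CD45-positive cells, and at 569 to 600.2 for ventricle. A gene passed a comparison at a Benjamini-Hochberg adjusted p under 0.05, from limma over all genes tested, with at least a 2-fold difference. A test was made where both arrays of 1 of the compared groups were well above background. Where 1 array of a group is left out, the test takes the lone array to vary like the other groups. The labels' cell types were set against marker genes, summed in units of each array's 75th percentile. The 11 macrophage markers, among them Ptprc, the gene of CD45 that the sort used, summed to 34.9 and 35.2 in passage-8 cells, 60.2 and 102 in CD45-negative cells, 846.3 and 846.6 in CD45-positive cells, with 94.6 and 91.6 in ventricle. Outside CD45-positive cells the largest part of these sums came from Itgam alone. Itgam averaged 4.80 in passage-8, 5.94 in CD45-negative and 4.30 in CD45-positive cells, with 5.86 in ventricle. The median log2 level of the 11 was -3.59 and -3.43 in passage-8 cells and -2.97 and 1.08 in CD45-negative cells. It was 5.725 and 5.756 in CD45-positive cells, with 0.66 and 0.38 in ventricle. Adgre1 and Cx3cr1 were not well above background in passage-8 cells, nor were Fcgr1, Cx3cr1 and Ptprc on replicate 1 of the CD45-negative cells. The 5 cardiomyocyte markers summed to 5.37 and 5.51 in passage-8 cells, 0.322 and 1.10 in CD45-negative cells, 0.910 and 1.08 in CD45-positive cells, against 3362 and 2767 in ventricle.

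In passage-8 cells all 9 members that could be tested were lower than in CD45-positive cells, the kind they descend from, where 23.5% of 23576 genes passed, 12.6% higher and 10.9% lower. In CD45-negative cells 7 of 10 passed against CD45-positive cells, 6 lower and the eotaxin gene Ccl11 higher, where 21.8% of 21640 genes passed, 11.2% higher and 10.5% lower. Between the passage-8 and CD45-negative cells 4 of 8 passed, all 4 lower in passage-8 cells, where 13.9% of 22905 genes passed, 6.97% higher and 6.98% lower. The median log2 difference of the members was -9.09 in passage-8 against CD45-positive cells, -3.01 in CD45-negative against CD45-positive cells and -3.86 in passage-8 against CD45-negative cells, whereas the medians of all genes tested in these comparisons were 0.16, 0.17 and -0.01. The members' medians are over 9, 10 and 8 genes in turn, not the same genes. These comparisons share arrays with each other. Some members entered a test through the brighter group alone, which all but fixes their direction. These were Ccl3, Ccl4 and Ccl12 in passage-8 against CD45-positive cells, and Ccl3, Ccl4 and Ccl11 in CD45-negative against CD45-positive cells. In passage-8 against CD45-negative cells they were Ccl11 and Ccl12. Nothing is read from the direction of these genes in the counts and medians. Of the macrophage markers 10 of 11 were lower in passage-8 cells, and 10 lower and 1, Itgam, higher in CD45-negative cells, than in CD45-positive cells. Some of these too entered through the CD45-positive arrays alone. They were Adgre1 and Cx3cr1 for passage-8 cells, and Ptprc, Fcgr1 and Cx3cr1 for CD45-negative cells. Ptprc is also the gene of the sort gate. Nothing is read from the direction of these markers. The part of the macrophage markers in the chemokine differences was not tested. In these bulk samples fewer cells of a type and less RNA per cell cannot be told apart.

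**Figure D1:**
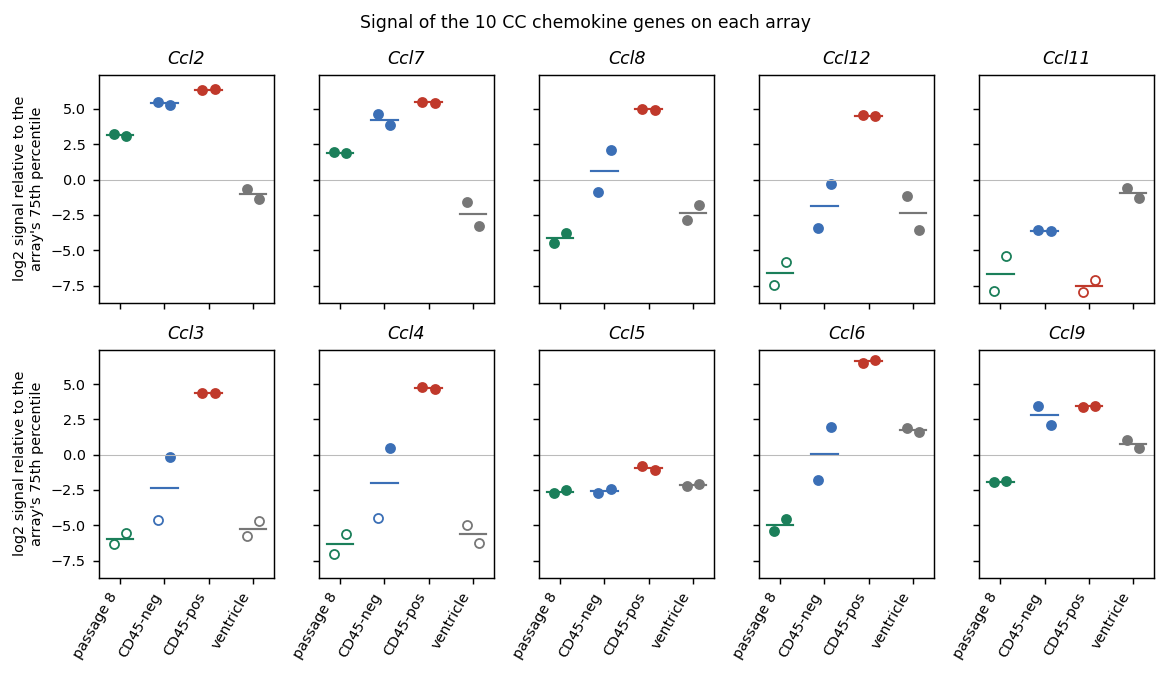
Signal of each CC chemokine gene on every array, as log2 relative to the array's 75th percentile (vertical axis), for passage-8, CD45-negative and CD45-positive cells and left ventricle. Filled points were well above background, open points were not, and bars are the mean of 2 arrays. In CD45-positive cells 9 of the 10 genes have their highest mean, and Ccl11 has its highest mean in ventricle.

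The monocyte attractants Ccl2 and Ccl7 were the 2 members that stood above their ventricle level in all 3 kinds of cell, by the tests given further on. Ccl2 stood at 3.20 and 3.09 in passage-8 cells, 5.49 and 5.31 in CD45-negative cells, 6.32 and 6.37 in CD45-positive cells, with -0.70 and -1.38 in ventricle. The 4 groups did not overlap, and the order ran from ventricle through passage-8 and CD45-negative to CD45-positive cells. Its 10 spots had an SD between 0.0684 and 0.135 within an array, counting 1 outlier spot that was left out of the levels. With limma, Ccl2 was lower in passage-8 cells than in CD45-positive cells (log2 difference -3.20, SE 0.28, adjusted p = 0.00137) and than in CD45-negative cells (-2.25, SE 0.28, adjusted p = 0.00695). The second call had an adjusted p of 0.0503 without replicate 2 of the passage-8 cells. Between the 2 primary cells it did not pass, at -0.95 in CD45-negative minus CD45-positive cells (95% interval -1.63 to -0.26, adjusted p = 0.0549 in limma). It passed there, at -1.14 to -1.08, with quantile normalization, normexp, the authors' values or the percentile of commonly detected probes.

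Ccl7, the next gene along from Ccl2, had the same order of the 4 groups. It stood at 1.95 and 1.86 in passage-8 cells, 4.65 and 3.85 in CD45-negative cells, 5.50 and 5.45 in CD45-positive cells, with -1.55 and -3.31 in ventricle. The groups did not overlap, though the ventricle arrays lay further apart than those of the cells. Ccl7 was lower in passage-8 than in CD45-positive cells (log2 difference -3.57, SE 0.59, adjusted p = 0.00905 in limma), a call that had adjusted p-values of 0.0577 and 0.0601 with replicate 1 or 2 of the CD45-positive cells left out. The differences of -2.35 in passage-8 minus CD45-negative cells (interval -3.81 to -0.89, adjusted p = 0.0501 in limma) and of -1.22 in CD45-negative minus CD45-positive cells (interval -2.68 to 0.23, adjusted p = 0.180) did not pass. The last passed with normexp (-1.40, adjusted p = 0.0316 in limma).

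Against ventricle both genes were higher in every kind of cell. Ccl2 was 18.3-fold higher in passage-8 cells (adjusted p = 0.00025 in limma), 86.9-fold in CD45-negative cells (adjusted p = 0.000103) and 168-fold in CD45-positive cells (adjusted p = 8.59e-05). Ccl7 was 20.2-fold higher in passage-8 cells (adjusted p = 0.0024 in limma), 102.7-fold in CD45-negative cells (adjusted p = 0.000569) and 239.8-fold in CD45-positive cells (adjusted p = 0.000362). With 1 ventricle array left out, the log2 difference of Ccl7 ran from 3.46 to 5.21 in passage-8, 5.80 to 7.56 in CD45-negative and 7.03 to 8.78 in CD45-positive cells, all passing. Likeness of pattern was measured as the root mean square difference of log2 levels over the 8 arrays, each gene set to its own mean, among 15491 genes. By it the nearest gene to Ccl2 was Ccl7, at 0.365, followed by Scel at 0.547 and Glipr1 at 0.629.

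Ccl12, another ligand of Ccr2, and its neighbour Ccl8 were far lower than in CD45-positive cells in both other kinds of cell. Ccl12 stood at -7.44 and -5.83 in passage-8 cells, neither array well above background, at -3.41 and -0.31 in CD45-negative cells, 4.54 and 4.53 in CD45-positive cells, with -1.19 and -3.57 in ventricle. The CD45-positive arrays were alone at the top, and the CD45-negative and ventricle arrays overlapped. Ccl12 was at least 1207-fold lower in passage-8 than in CD45-positive cells (adjusted p = 0.00270 in limma). For such a bound the dim group is put at its own signal or, if higher, at the weakest signal well above background on that array. Here and below, "at least" compares the means of these arrays and allows nothing for their spread. The interval of a fitted difference can therefore reach below its bound. For Ccl12 in passage-8 minus CD45-positive cells it ran from -14.23 to -8.09, against a bound of 10.24 log2 units. Bounds hold on this scale alone, and with normexp background correction the fitted log2 difference was smaller, at -8.03 here and -1.94 against ventricle. CD45-negative cells had 83.7-fold less Ccl12 signal than CD45-positive cells (log2 difference -6.39, SE 1.25, adjusted p = 0.0173 in limma), whereas passage-8 cells, at least 14.4-fold below CD45-negative cells, did not pass against them (adjusted p = 0.0545).

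Ccl8, the Ccr8 ligand, stood at -4.45 and -3.79 in passage-8 cells, -0.89 and 2.07 in CD45-negative cells, 4.98 and 4.96 in CD45-positive cells, with -2.84 and -1.83 in ventricle. No groups overlapped, and passage-8 cells were lowest. It was 546.5-fold lower in passage-8 than in CD45-positive cells (log2 difference -9.09, SE 0.95, adjusted p = 0.00224 in limma) and CD45-negative cells were 20.9-fold below CD45-positive cells (-4.38, SE 0.95, adjusted p = 0.0234). It was 26.2-fold lower in passage-8 than in CD45-negative cells (-4.71, SE 0.95, adjusted p = 0.0277 in limma). This difference was -6.19 with CD45-negative replicate 2 alone and -3.23 with replicate 1 alone. The call had adjusted p-values from 0.0531 to 0.102 without any 1 replicate of the passage-8 cells, the CD45-positive cells or the ventricle.

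The 250 bases before the transcription start are shown for the neighbours Ccl8 and Ccl12, which had the same order of the 3 kinds of cell. By group means every member but Ccl11 had that order, so it does not set this pair apart. Sequences are those of RefSeq in build GRCm38.p6, 5′ to 3′ on the gene's strand, and 5 of the 10 members had an entry in the table used. Capitals mark matches, on either strand, to the TATA box (TATAAA) and to the core bound by Ets factors such as PU.1 (AGGAAG, or CTTCCT on the other strand).
Ccl8 (chr11:82114935-82115184, plus strand): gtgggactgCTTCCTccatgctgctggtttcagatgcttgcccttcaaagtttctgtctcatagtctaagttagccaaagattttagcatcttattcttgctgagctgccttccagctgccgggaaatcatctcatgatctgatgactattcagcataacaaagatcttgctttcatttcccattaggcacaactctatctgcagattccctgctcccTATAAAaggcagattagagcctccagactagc
Ccl12 (chr11:82101595-82101844, plus strand): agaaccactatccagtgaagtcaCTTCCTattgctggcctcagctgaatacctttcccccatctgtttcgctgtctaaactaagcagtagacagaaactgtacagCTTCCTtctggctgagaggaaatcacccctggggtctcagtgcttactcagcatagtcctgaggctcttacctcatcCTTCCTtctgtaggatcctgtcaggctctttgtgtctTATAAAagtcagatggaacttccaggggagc
The TATA match begins 32 bases before the start in Ccl8 and 31 in Ccl12. Ccl12 has 3 matches to the Ets core and Ccl8 has 1. TATAAA is in 12.4% and AGGAAG in 29.5% of 32851 mouse promoter windows of the same length. Aligned end to end, these 2 windows were identical at 55.6% of columns, and the other 9 pairs among the 5 members at 43.7% to 50.4%.

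Ccl11, the eotaxin gene between Ccl7 and Ccl12 in the same cluster, had a different order from its neighbours. It stood at -7.89 and -5.42 in passage-8 cells and -7.97 and -7.13 in CD45-positive cells, none of these 4 arrays well above background, at -3.58 and -3.67 in CD45-negative cells, and at -0.58 and -1.28 in ventricle. The CD45-negative arrays lay above both other kinds of cell and below ventricle. Ccl11 was at least 3.38-fold higher in CD45-negative cells than in CD45-positive ones (adjusted p = 0.0201 in limma), and this was the 1 member higher in CD45-negative cells. Without any 1 array of these 2 groups the adjusted p was 0.0553 to 0.118, and with array weights it was 0.0724. In passage-8 against CD45-negative cells it did not pass (adjusted p = 0.0574 in limma), and passage-8 against CD45-positive cells was not tested. Ccl7, Ccl11 and Ccl12 each passed as lower in passage-8 than in CD45-negative cells with quantile normalization, normexp, the authors' values or a trend in eBayes. The 8 fibroblast markers, genes of connective tissue cells, summed to 940.3 and 940.5 in passage-8 cells, 1108 and 1277 in CD45-negative cells, 532 and 495.3 in CD45-positive cells, with 253 and 415 in ventricle, and their part in the Ccl11 levels was not tested. Against ventricle Ccl11 was at least 26.2-fold lower in passage-8 cells (adjusted p = 0.00270 in limma), 6.47-fold lower in CD45-negative cells (adjusted p = 0.0374) and at least 21.9-fold lower in CD45-positive cells (adjusted p = 0.00166). With normexp the fitted log2 difference was -2.92 in passage-8 and -2.99 in CD45-positive cells. The middle one of these had adjusted p-values of 0.0595 to 0.16 without any 1 array of the CD45-negative cells, the CD45-positive cells or the ventricle.

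The macrophage inflammatory proteins Ccl3 and Ccl4 were bright in CD45-positive cells and were at or near background elsewhere, except on 1 array. Ccl3 stood at -6.35 and -5.53 in passage-8 cells, -4.60 and -0.15 in CD45-negative cells, 4.36 and 4.39 in CD45-positive cells, with -5.73 and -4.73 in ventricle. Ccl4 stood at -6.99 and -5.62 in passage-8 cells, -4.46 and 0.48 in CD45-negative cells, 4.77 and 4.64 in CD45-positive cells, with -4.95 and -6.24 in ventricle. Outside the CD45-positive cells, replicate 2 of the CD45-negative cells was the 1 array on which each gene was well above background.

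Ccl3 was at least 1074.5-fold lower (adjusted p = 0.00448 in limma) and Ccl4 at least 1364.5-fold lower (adjusted p = 0.00546) in passage-8 than in CD45-positive cells. The intervals of the fitted log2 differences reached to -6.96 for Ccl3 and -7.19 for Ccl4, short of the bounds of 10.07 and 10.41. With normexp the fitted log2 differences were -7.87 for Ccl3 and -8.08 for Ccl4. In CD45-negative against CD45-positive cells, where 1 of the 2 CD45-negative arrays was well above background, the log2 difference was -6.74 for Ccl3 (SE 1.36, adjusted p = 0.0190 in limma) and -6.70 for Ccl4 (SE 1.55, adjusted p = 0.0283). Ccl4 had an adjusted p of 0.0544 without either ventricle array. In CD45-positive cells Ccl3 was at least 626-fold and Ccl4 at least 771-fold higher than in ventricle (limma adjusted p = 0.00285 and 0.00353). The log2 differences were 7.24 and 7.48 with normexp. The intervals of the main fit reached down to 6.25 for Ccl3 and 6.48 for Ccl4, short of the bounds of 9.29 and 9.59. Their other comparisons were not tested, as neither group was above background on both arrays. The nearest gene to Ccl4 in pattern was Ccl3, at 0.704, and the nearest to Ccl3 were Nxpe5 at 0.446 and Bcl2a1c at 0.625.

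Ccl5, which T cells are best known for making, varied least among the members. It stood at -2.75 and -2.48 in passage-8 cells, -2.72 and -2.45 in CD45-negative cells, -0.82 and -1.08 in CD45-positive cells, with -2.22 and -2.08 in ventricle. The CD45-positive arrays were highest, and the passage-8 and CD45-negative arrays overlapped. Ccl5 was 3.17-fold lower in passage-8 cells (adjusted p = 0.00521 in limma) and 3.11-fold lower in CD45-negative cells (adjusted p = 0.00678) than in CD45-positive cells. Passage-8 minus CD45-negative cells was -0.03 (interval -0.60 to 0.54, adjusted p = 0.949 in limma), and the sign turned under 3 other scalings. With normexp background correction, CD45-negative against CD45-positive cells came to -0.82 and did not pass. The 8 T and NK cell markers summed to 7.05 and 8.19 in passage-8 cells, 8.93 and 11.7 in CD45-negative cells, 13.3 and 12.7 in CD45-positive cells, with 12.8 and 19.1 in ventricle. These sums came mostly from Cd4, Cd3e and Nkg7. Cd3d and Klrb1c were not well above background on any array of the cells. Among the cells, Cd3g and Cd8a were so on replicate 2 of the passage-8 cells only. The part of T and NK cells in the Ccl5 level was not tested.

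The myeloid chemokine genes Ccl6 and Ccl9 were lowest in passage-8 cells, and CD45-negative cells passed against CD45-positive cells for Ccl6 but not for Ccl9. Ccl6 stood at -5.39 and -4.59 in passage-8 cells, -1.79 and 1.94 in CD45-negative cells, 6.52 and 6.70 in CD45-positive cells, with 1.87 and 1.60 in ventricle. The CD45-negative arrays spanned the ventricle's, and the other groups stood clear of each other. Ccl6 was 3102-fold lower in passage-8 than in CD45-positive cells (log2 difference -11.60, SE 1.13, adjusted p = 0.00186 in limma), and CD45-negative cells were 92.9-fold below CD45-positive cells (-6.54, SE 1.13, adjusted p = 0.0121). The passage-8 signals were weak, at intensities of 23.2 and 40.5, and with normexp the first difference was -9.80. Ccl6 was 33.4-fold lower in passage-8 than in CD45-negative cells (-5.06, SE 1.13, adjusted p = 0.0365 in limma). This difference was -6.93 with CD45-negative replicate 2 alone and -3.20 with replicate 1 alone. The call had adjusted p-values from 0.0711 to 0.124 without any 1 replicate of the passage-8 cells, the CD45-positive cells or the ventricle, and 0.052 with no filter on dim probes.

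Ccl9 stood at -1.97 and -1.85 in passage-8 cells, 3.47 and 2.07 in CD45-negative cells, 3.38 and 3.45 in CD45-positive cells, with 1.03 and 0.45 in ventricle. The 2 primary cells overlapped, with 1 CD45-negative array just above both CD45-positive arrays and 1 below. Ccl9 was 40.0-fold lower in passage-8 than in CD45-positive cells (log2 difference -5.32, SE 0.48, adjusted p = 0.00153 in limma) and 25.7-fold lower than in CD45-negative cells (-4.68, SE 0.48, adjusted p = 0.00406). CD45-negative minus CD45-positive cells was -0.64 (interval -1.82 to 0.54, adjusted p = 0.368 in limma). With CD45-negative replicate 2 alone it was -1.34, and with replicate 1 alone it was 0.061. The genes nearest in pattern included Slc11a1 at 0.289 for Ccl6, and Hsd11b1 at 0.506 and Rpl39l at 0.508 for Ccl9.

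**Figure D2:**
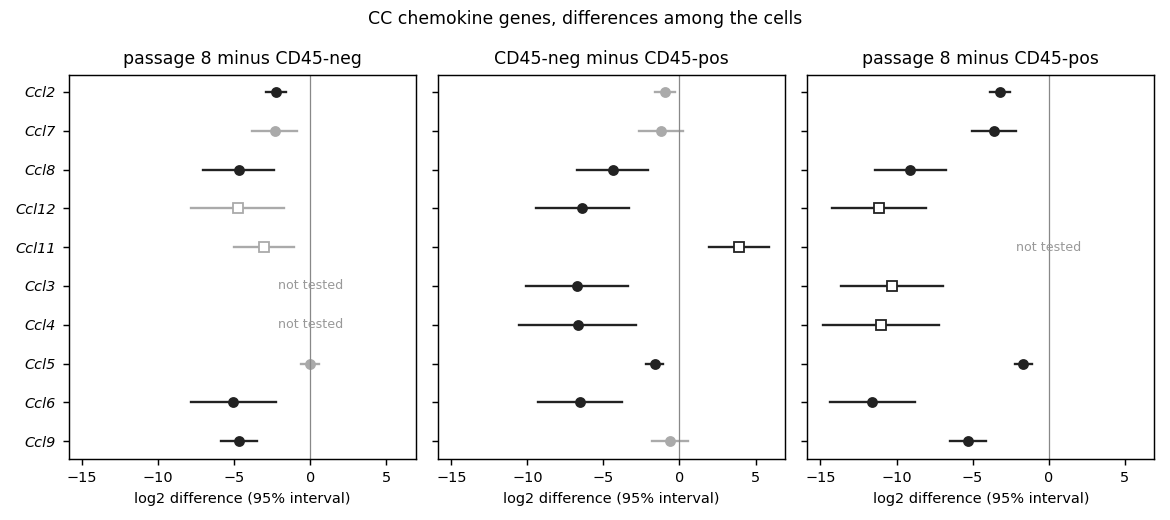
Log2 difference of each CC chemokine gene (horizontal axis, with 95% interval from limma) in passage-8 minus CD45-negative, CD45-negative minus CD45-positive, and passage-8 minus CD45-positive cells. Dark symbols passed, grey ones did not, and open squares have 1 group not well above background on either array, so their fitted values are no bound. In passage-8 minus CD45-positive cells all 9 tested genes lie below 0, and Ccl11 alone lies above 0 in CD45-negative minus CD45-positive cells.

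The upstream windows of Ccl6 and Ccl9 are shown because of these neighbours on the minus strand Ccl6 passed in CD45-negative against CD45-positive cells and Ccl9 did not. Capitals mark matches to the same motifs, and in Ccl9 also to the AP-1 motif (TGANTCA) and the NF-kB motif, kappa-B.
Ccl6 (chr11:83593088-83593337, minus strand): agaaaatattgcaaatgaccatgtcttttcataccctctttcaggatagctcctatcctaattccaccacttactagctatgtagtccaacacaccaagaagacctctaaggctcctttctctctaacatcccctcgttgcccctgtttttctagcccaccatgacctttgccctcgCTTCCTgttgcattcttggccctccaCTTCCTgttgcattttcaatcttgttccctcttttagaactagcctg
Ccl9 (chr11:83578637-83578886, minus strand): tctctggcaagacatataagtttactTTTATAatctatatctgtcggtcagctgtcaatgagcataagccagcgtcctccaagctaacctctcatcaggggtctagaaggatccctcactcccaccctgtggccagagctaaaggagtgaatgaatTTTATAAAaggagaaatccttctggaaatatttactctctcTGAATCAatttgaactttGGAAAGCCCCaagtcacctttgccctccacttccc
Ccl6 has 2 matches to the Ets core and none to TATAAA. Ccl9 has 3 matches to the TATA box over both strands, of which 2 overlap, none to the Ets core, and 1 each to AP-1 and kappa-B. The AP-1 motif is in 6.75% and kappa-B in 7.25% of the 32851 windows. The C/EBP motif TTGCNNAA, in 9.56% of them, matched none of the 5 members' windows, and the Ccl3 window held none of the 5 motifs searched. A match describes letters only.

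Ccl6, Ccl8 and Ccl12 lay far apart on the 2 CD45-negative arrays. Ccl3 and Ccl4 were well above background on replicate 2 but not on replicate 1, so their gap has no exact size. Replicate 2 was higher than replicate 1 by 3.73 log2 units for Ccl6, 3.1 for Ccl12 and 2.96 for Ccl8. The other members had gaps of 0.27 for Ccl5, -0.09 for Ccl11, -0.18 for Ccl2, -0.80 for Ccl7 and -1.40 for Ccl9. Over 19110 genes well above background on both of these arrays the median absolute gap was 0.451 and the 95th percentile was 1.59, so of the 8 members measured on both arrays 3 lay outside it and 5 inside. Of the 11 macrophage markers 8 were well above background on both arrays, all 8 higher on replicate 2, by 0.233 to 4.91, and 7 of them lay outside. Of the 25 markers of other cell types measured on both arrays 7 lay outside. These were Itgax at 5.49, Hdc at 3.24, Krt19 at 2.02 and Tnnt2 at 1.66, higher on replicate 2, and Wt1 at -2.85, Lum at -2.18 and Tcf21 at -2.13, lower on it. Itgax came from the dendritic cell list, Hdc from mast cells, Tnnt2 from cardiomyocytes, Krt19 and Wt1 from mesothelium, and Lum and Tcf21 from fibroblasts. Of the genes measured on both arrays, 1 of 2 dendritic, 1 of 2 mast cell and 1 of 1 cardiomyocyte genes lay outside. So did 2 of 4 mesothelium genes, in opposite directions, and 2 of 8 fibroblast genes. No difference in a cell type is read from these genes. The part of the markers in the chemokine gap was not tested. The labels treat both arrays as the same kind of cell.

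The values of Ccl3, Ccl4, Ccl6, Ccl8 and Ccl12 therefore rest on which CD45-negative array is used. In CD45-negative minus CD45-positive cells the log2 difference was -4.52 for Ccl3 and -4.22 for Ccl4 with replicate 2 alone. It was -4.67 and -8.40 for Ccl6, -4.84 and -7.94 for Ccl12, and -2.90 and -5.86 for Ccl8, each time with replicate 2 alone first and replicate 1 alone second. With only these 2 groups fitted in limma, Ccl3, Ccl4, Ccl6 and Ccl8 did not pass in this comparison. Their adjusted p-values were then 0.0756, 0.0924, 0.0598 and 0.081 in turn. With either CD45-positive array left out, however, 0 of the 10 members passed with limma in this comparison, 7 had an unadjusted p under 0.05, and 1072 and 693 of all genes passed. Adjusted p-values of the 7 were then 0.0578 to 0.141.

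**Figure D3:**
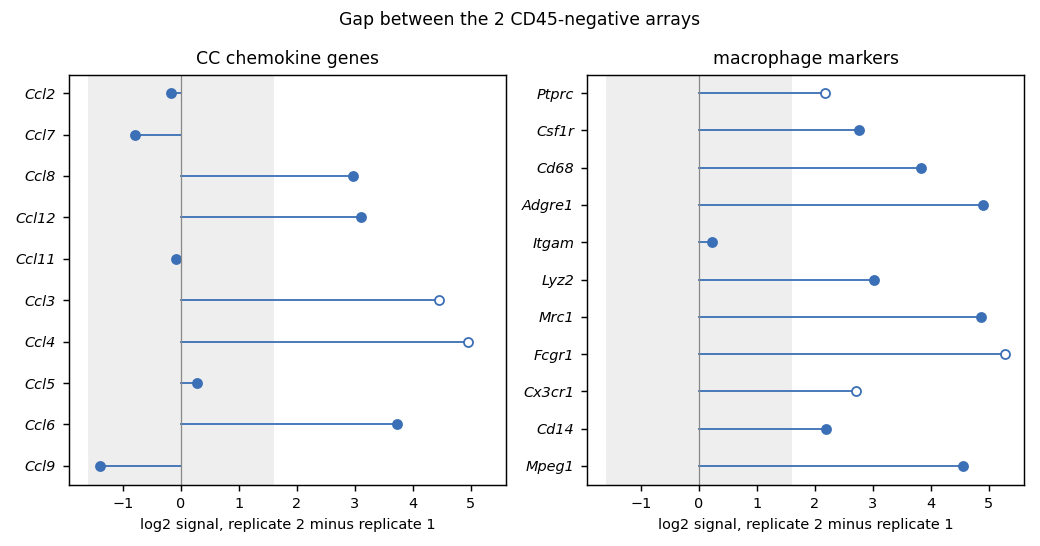
Gap in log2 signal between the 2 CD45-negative arrays, replicate 2 minus replicate 1 (horizontal axis), for the CC chemokine genes and the 11 macrophage markers. The grey band reaches to the 95th percentile, 1.59, of the absolute gap over 19110 genes. Filled points were well above background on both arrays, and open points, Ccl3, Ccl4, Ptprc, Fcgr1 and Cx3cr1, were not on replicate 1, so their place has no exact meaning. Ccl6, Ccl8 and Ccl12 lie to the right of the band, as do 7 of the 8 filled markers.

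Against the left ventricle most members were higher in CD45-positive cells, whereas passage-8 cells had both lower and higher members. In passage-8 cells 6 of 8 tested members passed, 2 higher and 4 lower, where 39.2% of 24127 genes passed, 20.3% higher and 18.9% lower. In CD45-negative cells 5 of 8 passed, 4 higher and 1 lower, where 39.5% of 22403 genes passed, 20.3% higher and 19.2% lower. In CD45-positive cells all 10 passed, 9 higher and Ccl11 lower, where 38.1% of 23220 genes passed, 18.3% higher and 19.8% lower. The median log2 difference of the members was -2.22 in passage-8, 1.28 in CD45-negative and 7.11 in CD45-positive cells, whereas over all genes tested it was 0.05 in passage-8, 0.06 in CD45-negative and -0.02 in CD45-positive cells. These medians are over 8, 8 and 10 members in turn, with Ccl3 and Ccl4 in the last alone, so they do not cover the same genes. In CD45-positive cells Ccl3 and Ccl4 entered the test through those cells alone and Ccl11 through ventricle alone. In passage-8 cells Ccl11 and Ccl12 entered through ventricle alone. Nothing is read from the direction of these genes in the counts and medians. Whether the kinds of cell differ in the counts of passing members was not tested, and all 3 share the ventricle arrays. The macrophage markers went 0 higher and 6 lower of 11 in passage-8 cells, 0 of 10 either way in CD45-negative cells, where 3 had an unadjusted p under 0.05 with limma, and 8 higher and 1 lower of 11 in CD45-positive cells. Adgre1 and Cx3cr1 in passage-8 cells, and Ptprc and Cx3cr1 in CD45-negative cells, entered through ventricle alone. Fcgr1 entered through the cells alone in passage-8 and CD45-positive cells. Nothing is read from the direction of these markers.

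Among the genes not yet set against ventricle, Ccl8 was 158.6-fold higher in CD45-positive cells (adjusted p = 0.00207 in limma) and 7.60-fold higher in CD45-negative cells (adjusted p = 0.0480). The second call had an adjusted p of 0.0593 to 0.199 without any 1 array other than replicate 1 of the CD45-negative cells. In passage-8 cells Ccl8 did not pass (log2 difference -1.79, adjusted p = 0.175 in limma). Ccl12 was at least 10.0-fold lower than ventricle in passage-8 cells (adjusted p = 0.0355 in limma) and 120.4-fold higher in CD45-positive cells (adjusted p = 0.00682). The first of these had an adjusted p of 0.0504 to 0.169 without replicate 1 or 2 of the passage-8 or CD45-positive cells or replicate 1 of the ventricle, 0.0556 with the authors' values and 0.0517 with only the 2 groups fitted. The second ran from 5.72 to 8.10 log2 units with 1 array left out. In CD45-negative cells it did not pass (0.52, interval -2.54 to 3.59, adjusted p = 0.755 in limma).

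Ccl6, which had a clear level in ventricle, was 105.7-fold lower in passage-8 cells (adjusted p = 0.00507 in limma) and 29.4-fold higher in CD45-positive cells (adjusted p = 0.0168). The higher level in CD45-positive cells had an adjusted p of 0.0707 to 0.0844 without any 1 array of the 2 groups. In CD45-negative cells Ccl6 did not pass, at 0.20 with replicate 2 alone and -3.53 with replicate 1 alone. Ccl9 was 6.26-fold lower in passage-8 cells (adjusted p = 0.00669 in limma), 4.10-fold higher in CD45-negative cells (adjusted p = 0.0167) and 6.39-fold higher in CD45-positive cells (adjusted p = 0.00672). The CD45-negative difference ran from 1.34 to 2.74 with 1 array left out and had an adjusted p of 0.0916 without replicate 2 of the ventricle. Ccl5 was 2.30-fold higher in CD45-positive cells (adjusted p = 0.00858 in limma), with an adjusted p of 0.0688 without replicate 1 of those cells and a log2 difference of 0.86, under 2-fold, with normexp. It did not pass in the other 2 kinds of cell.

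**Figure D4:**
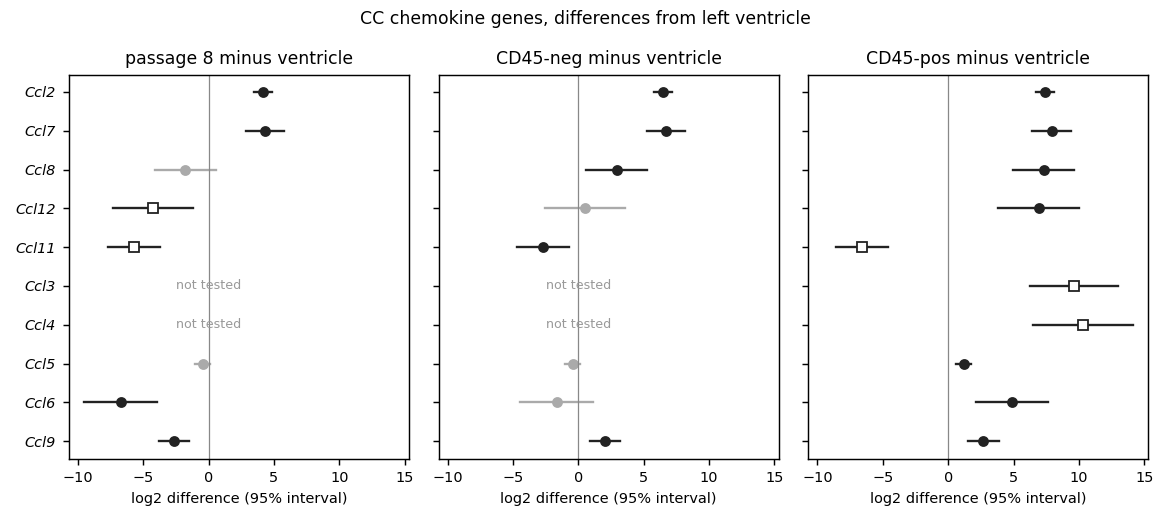
Log2 difference of each CC chemokine gene (horizontal axis, with 95% interval from limma) in passage-8, CD45-negative and CD45-positive cells minus left ventricle. Dark symbols passed, grey ones did not, and open squares have 1 group not well above background on either array. Ccl2 and Ccl7 lie above 0 in all 3 panels and Ccl11 lies below 0 in all 3.

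Receptor genes of these ligands were read on the same arrays. Ccr1, the receptor of Ccl3, Ccl5, Ccl6 and Ccl9, was at least 34.6-fold lower in passage-8 cells (adjusted p = 0.00109 in limma) and at least 16.3-fold lower in CD45-negative cells (adjusted p = 0.00339) than in CD45-positive cells. Its level averaged -0.59 ± 0.07 in CD45-positive cells (SD, n = 2) and it was not well above background on any array of the other groups.

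Ccr2, the receptor of Ccl2, Ccl7 and Ccl12, averaged -4.13 ± 0.09 in CD45-positive cells and -2.31 ± 0.10 in ventricle (SD, n = 2 each), and was not well above background in passage-8 or CD45-negative cells. It was at least 2.98-fold lower in passage-8 than in CD45-positive cells (adjusted p = 0.0331 in limma), and CD45-negative against CD45-positive cells did not pass (adjusted p = 0.0565). Against ventricle it was at least 10.5-fold lower in passage-8 cells (adjusted p = 0.00327 in limma) and at least 4.95-fold lower in CD45-negative cells (adjusted p = 0.00458). Ccr3, the receptor of Ccl11, was at least 2.48-fold lower in CD45-negative cells than in CD45-positive ones (adjusted p = 0.0407 in limma), where Ccl11 itself was higher. Ccr8, the receptor of Ccl8, did not pass any of the 6 comparisons (limma adjusted p between 0.892 and 0.987).

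Of 5 atypical and decoy receptor genes, whose products bind chemokines without the usual signal, Ccrl2 was lower in passage-8 cells (log2 difference -4.03, adjusted p = 0.0107 in limma) and CD45-negative cells (-2.64, adjusted p = 0.0415) than in CD45-positive cells. Ackr2, a scavenger of inflammatory CC chemokines, averaged -5.99 ± 2.07 in passage-8 cells, -5.19 ± 0.84 in CD45-negative cells, -3.12 ± 0.19 in CD45-positive cells and -0.28 ± 0.33 in ventricle (SD, n = 2 each). It was lower than ventricle in passage-8 cells, where 1 of 2 arrays was well above background (-5.72, adjusted p = 0.00489 in limma), and at least 20.3-fold lower in CD45-negative cells (adjusted p = 0.00833). In CD45-positive cells it did not pass (-2.84, adjusted p = 0.0555 in limma).

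**Figure D5:**
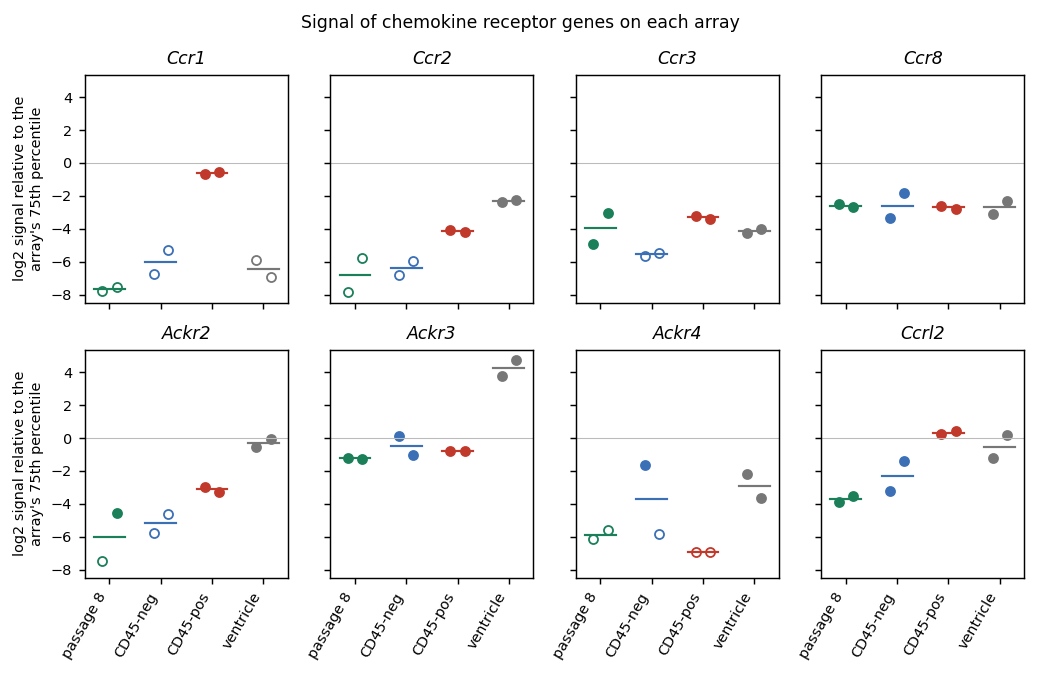
Signal of 4 CC receptor genes and 4 atypical receptor genes on every array, as log2 relative to the array's 75th percentile (vertical axis), for passage-8, CD45-negative and CD45-positive cells and left ventricle. Filled points were well above background, open points were not, and bars are the mean of 2 arrays. Ccr1 is well above background in CD45-positive cells only.

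Inducing cytokines and genes of the NF-kB pathway, brakes on it among them, were read from 2 further lists. Whether they act on the members was not tested. Of 8 inducing cytokine genes, 5 were tested in passage-8 against CD45-positive cells and 4 were lower, where 23.5% of all genes passed. Among them were Il1b (at least 48.0-fold) and Tnf (at least 29.9-fold), which call out the inflammatory response. Of 5 tested in CD45-negative against CD45-positive cells 2 were lower, where 21.8% of all genes passed. They were Tnf, at least 13.2-fold, and Il1b, well above background on 1 of 2 CD45-negative arrays. Of the 5, Il1a, Il1b, Il4 and Tnf entered the test through the CD45-positive arrays alone, so nothing is read from these counts. Il6 averaged 1.44 ± 0.08 in passage-8 cells, 4.06 ± 0.27 in CD45-negative cells and 3.90 ± 0.02 in CD45-positive cells (SD, n = 2 each). In ventricle Il6 was not well above background. Of 14 NF-kB pathway genes, 1 was lower in passage-8 cells, Tnfaip3 (-1.48, adjusted p = 0.00503 in limma), a brake on NF-kB signalling, and 0 passed with limma in CD45-negative cells (5 at an unadjusted p under 0.05), in both cases against CD45-positive cells. Against ventricle, 6 of the 14 were higher in passage-8 cells, 5 higher and 1 lower in CD45-negative cells, and 5 higher in CD45-positive cells, shares near the 39.2%, 39.5% and 38.1% of all genes that passed there.

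Of 13 further CC ligand genes 10 were on the array. In passage-8 against CD45-positive cells 1 was higher and 1 lower of 6 tested, where 23.5% of all genes passed. The higher one was Ccl28, at -3.84 in passage-8 cells and -6.47, not well above background, in CD45-positive cells. In CD45-negative against CD45-positive cells 0 of 5 passed with limma, and 0 had an unadjusted p under 0.05, where 21.8% of all genes passed. With so few genes nothing is read from these counts. Ccl17, a ligand of Ccr4, averaged -3.65 ± 0.03 in passage-8 cells, -0.99 ± 0.86 in CD45-negative cells and -1.73 ± 0.03 in CD45-positive cells (SD, n = 2 each). It was lower in passage-8 cells than in CD45-positive cells (log2 difference -1.93, adjusted p = 0.0223 in limma) and than in CD45-negative cells (-2.66, adjusted p = 0.0141). Ccl24, another eotaxin, averaged -0.62 ± 0.40 in ventricle (SD, n = 2) and was lower than ventricle in all 3 kinds of cell. The log2 difference was -5.73 in passage-8 cells, with 1 of 2 arrays well above background (adjusted p = 0.00388 in limma). It was at least 16.0-fold lower in CD45-negative cells (adjusted p = 0.00372 in limma) and at least 27.2-fold lower in CD45-positive cells (adjusted p = 0.00358).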

How the data were processed

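The deposited scanner files give spot intensity values made with Agilent Feature Extraction 10.7, as the submitters' processing notes state. Background had been subtracted and spatial trends removed, per the file headers. The authors' deposited value table is in log2 units, and how it was normalized was not stated. All arrays share 1 slide and scan.

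Levels are log2 of the processed signal after subtracting the array's 75th percentile, without control and outlier spots. Spots of 1 probe were averaged, and the probe with the highest mean stood for a gene with several. Of 55681 probes, 27235 matched RefSeq by accession. One model over the 8 arrays, with a mean for each group, was fitted in limma 3.58.1 under R 4.3.3 (lmFit, then eBayes), leaving 4 residual degrees of freedom. Adjustment covered all genes of a comparison, and p-values are two-sided. With 2 arrays a group the smallest exact permutation p is 0.333, so none is given. The fit was tested on simulated data. No probe was saturated, and array number limits precision. Genes beside the members came from lists of receptors, ligands, NF-kB genes, cytokines and markers. The members and lists were chosen with earlier results of these data known. Alternatives covered scaling, background correction, the authors' values, filters, moderation, arrays and the replicate block.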

Additional observations from a re-analysis of the deposited data

How the results depend on the processing

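Each member's difference was recomputed under 13 other settings and without each of the 8 arrays. Of the 672 values under other settings 627 kept their direction and their call, 21 lost it, 20 gained it and 4 changed sign. Of the 424 values without 1 array 353 kept both, 57 lost the call, 8 gained it and 6 changed sign. Ccl5 in passage-8 minus CD45-negative cells came to 0.11 with quantile normalization, 0.017 with median scaling, 0.051 with the 75th percentile of probes above background on all arrays, and from -0.16 to 0.11 without 1 array, with 0.11 when replicate 2 of the CD45-negative or replicate 1 of the passage-8 cells was left out. Against ventricle in CD45-negative cells, Ccl5 came to 0.042 with normexp. Without 1 array, Ccl6 there ran from -3.53 to 0.20, the last without replicate 1 of the CD45-negative cells, and Ccl12 from -1.03 to 2.07, with -1.03 without replicate 2 of those cells and -0.67 without replicate 2 of the ventricle. Ccl9 in CD45-negative minus CD45-positive cells ran from -1.34 to 0.061, the last without replicate 2 of the CD45-negative cells.

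The count of members passing moved by over 1.5 times in some settings. Of the 7 in CD45-negative against CD45-positive cells, 3 passed when only genes above background on all 8 arrays entered, since fewer members were then tested, and 3 when only the 2 groups were fitted. Of the 4 in passage-8 against CD45-negative cells the count was 7 with quantile normalization, normexp, the authors' values or a trend in eBayes, and 0 with only the 2 groups, where 7 of 8 had an unadjusted p under 0.05 with limma. Of the 5 in CD45-negative cells against ventricle 3 passed with no filter, with the filter on all 8 arrays or with array weights. Of the 10 in CD45-positive cells against ventricle 6 passed with the filter on all 8 arrays. Where no construction is named the cause was not tested. Without 1 array the counts ran from 0 to 7 in CD45-negative against CD45-positive cells, 8 to 9 in passage-8 against CD45-positive cells and 2 to 7 in passage-8 against CD45-negative cells. Against ventricle they ran from 5 to 7 in passage-8, 2 to 6 in CD45-negative and 8 to 10 in CD45-positive cells.

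With the replicate number as a block the counts in the same order of comparisons were 7, 9, 5, 6, 5 and 10, and the 1 call that changed was Ccl7 in passage-8 against CD45-negative cells, gained at an adjusted p of 0.0429. Same-numbered arrays did not deviate together in every pair of groups (correlations across genes from -0.067 to 0.224), so the numbers were not taken as a pairing. Other scalings moved the median of all genes by -0.248 to 0.285 log2 units. The share of calls that were higher was 36.3% with median scaling against 51.6% in CD45-negative against CD45-positive cells, 42.5% against 53.6% in passage-8 against CD45-positive cells, and 58.6% against 48.0% in CD45-positive cells against ventricle. It was 31.3% with normexp against 50% in passage-8 against CD45-negative cells.

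With 2 arrays a group, signals near background carry the least information. This applies to Ccl3, Ccl4, Ccl11 and Ccl12 in passage-8 cells, to Ccl11 in CD45-positive cells, and to Ccl3 and Ccl4 in ventricle and on CD45-negative replicate 1. With normexp, differences of weak genes were smaller, such as -9.80 for Ccl6 and -7.79 for Ccl8 in passage-8 minus CD45-positive cells.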

Other observations

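Further genes near the members in pattern, by the same root mean square difference over 8 arrays, were H2bc14 at 0.141 for Ccl5, Ncf4 at 0.379 for Ccl6, Col24a1 at 0.854 for Ccl8, Ednra at 0.857 for Ccl11 and Slc15a3 at 0.833 for Ccl12. Ackr3, an atypical receptor gene whose product binds chemokines of the CXC kind, averaged -1.24 ± 0.08 in passage-8 cells, -0.46 ± 0.83 in CD45-negative cells, -0.82 ± 0.0022 in CD45-positive cells and 4.25 ± 0.71 in ventricle (SD, n = 2 each). It was lower than ventricle in passage-8 cells (log2 difference -5.49, limma adjusted p = 0.000563), CD45-negative cells (-4.71, adjusted p = 0.000899) and CD45-positive cells (-5.06, adjusted p = 0.000756).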
